A study of Mus musculus with 32 samples.

Results

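The mRNA of 57 genes of the cell division cycle and of DNA replication was followed across 8 groups of mouse cells, 6 of them liver cell fractions and 2 of them colorectal cancer (CRC) cells. The members were the genes whose symbol in the array annotation was on a list of 57 names, and all 57 were found, on 80 of 55681 probes, among 31982 named genes. Of these genes, 41 had 1 probe, 9 had 2 and 7 had 3, and each gene was represented by the probe with the highest mean signal. No value from these arrays enters the rule, but the list was chosen with earlier results of these data known. The names were sorted into 11 roles: 2 proliferation markers, 11 genes of origin licensing, 5 of origin firing and the replisome, 4 of deoxynucleotide supply, 7 G1 cyclins and kinases, 4 S to M phase cyclins and kinase, 3 Cdc25 phosphatases, 8 mitotic kinases, checkpoint and anaphase-promoting complex genes, 7 of the centromere, spindle and cytokinesis, 4 transcription factors and 2 inhibitors of cyclin-dependent kinases.

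A dividing cell prepares its chromosomes for copying in G1 by loading the Mcm helicase onto replication origins, copies them in S phase and separates them in mitosis. Cyclins bind and switch on cyclin-dependent kinases (CDKs), D and E type cyclins in G1 and A and B type cyclins later, and inhibitors such as *Cdkn1a* and *Cdkn1b* hold the kinases back. Many genes of the S and M phases are transcribed in cycling cells and are held low in resting cells by E2F, Rb family and DREAM complexes, which act at E2F and CHR (cell cycle genes homology region) elements of their promoters. Most cells of the adult liver are out of the cycle, whereas carcinoma lines divide continuously.

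The liver cells were sinusoidal endothelial cells, Ito cells (hepatic stellate cells) and Kupffer cells (liver macrophages) of male Balb/c mice aged 6 to 8 weeks. Control fractions (EC, IC and KC) came from mice given PBS in the spleen, and tumor microenvironment (TME) fractions (ET, IT and KT) from mice given syngeneic C26 colon carcinoma cells there, with livers taken 14 days later. The fractions were prepared by collagenase digestion, Percoll gradients and adherence, and were kept in culture for up to 24 hours. TP is labelled as CRC primary cells, which the study lists as primary tumor, and TM as tumor liver metastasis cells. The study names the mice with induced CRC as the source of both, and how either was isolated is not given in the sources used here. No genotype other than the Balb/c strain is given for any group. Each group had 4 samples, described by the study as biological replicates, and the labels do not say whether RNA of several mice was pooled.

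Each of the 16 two-colour Agilent arrays carried a Cy3 and a Cy5 sample. Control and TM samples were always Cy3 and TME and TP samples always Cy5, so the dye cannot be told apart from the TME or from TP against TM, and the 4 arrays per group limit the precision. Slide 1 held the arrays of endothelial and Ito cells, and slide 2 those of Kupffer and tumor cells. Between 38.4 and 57.1% of the spots of a channel were well above background and 0 were saturated. The Ito and Kupffer arrays of replicate 4 ran against their labels: across 17050 probes their TME minus control differences correlated at -0.66 and -0.6 with the mean of the other arrays of the same cell type, and in each of the 4 channels the closest channel carried the opposite label. TME Ito replicate 2 and control Kupffer replicate 3 also stood apart from their groups, and values are therefore given with and without these 6 libraries where they touch a result. They were chosen after seeing the data, replicate 4 by its TME minus control differences. TME calls gained without them are therefore not independent support. None of the 6 is an endothelial or tumor library. Without them IT keeps replicates 1 and 3, KC replicates 1 and 2, and IC and KT replicates 1 to 3. Hepatocyte markers summed to 75.7 to 177 intensity units in tumor channels and to 14300 to 408000 in liver channels, and the Kupffer marker *Clec4f* and the endothelial marker *Cdh5* were not well above background in any tumor channel. The Ito marker *Lrat* was low in every group, and the summed signal of 8 Ito markers was 258000 to 299000 in EC and 136000 to 259000 in IC. Among epithelial markers, *Epcam* and *Cdh1* were not well above background in any tumor channel, while *Krt20* was at least 39.7-fold higher in the tumor than in the Kupffer channels. In such bulk samples fewer cells of a type and less RNA per cell cannot be told apart.

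The cell cycle genes separated the tumor groups from all liver fractions. To place each channel, the log2 level of each member was centred on its own mean over the 32 channels and the median over the 57 members was taken. This list level was 2.78, 2.88, 3.43 and 3.32 in TP replicates 1 to 4 and 3.61, 1.23, 1.53 and 2.99 in TM replicates 1 to 4. It lay between -1.16 and -0.91 in EC, -0.68 and 0.32 in ET, -1.3 and -0.81 in IC, -1.32 and 0.05 in IT, -1.13 and -0.95 in KC, and -1.09 and -0.9 in KT. All 8 tumor channels were above all 24 liver channels, the TM channels spanned more than the TP channels, and among liver fractions the ET channels were the highest by their median. The same quantity over all named genes lay between -0.13 and 0.02. These list levels are a description and carry no test.

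**Figure D1:**
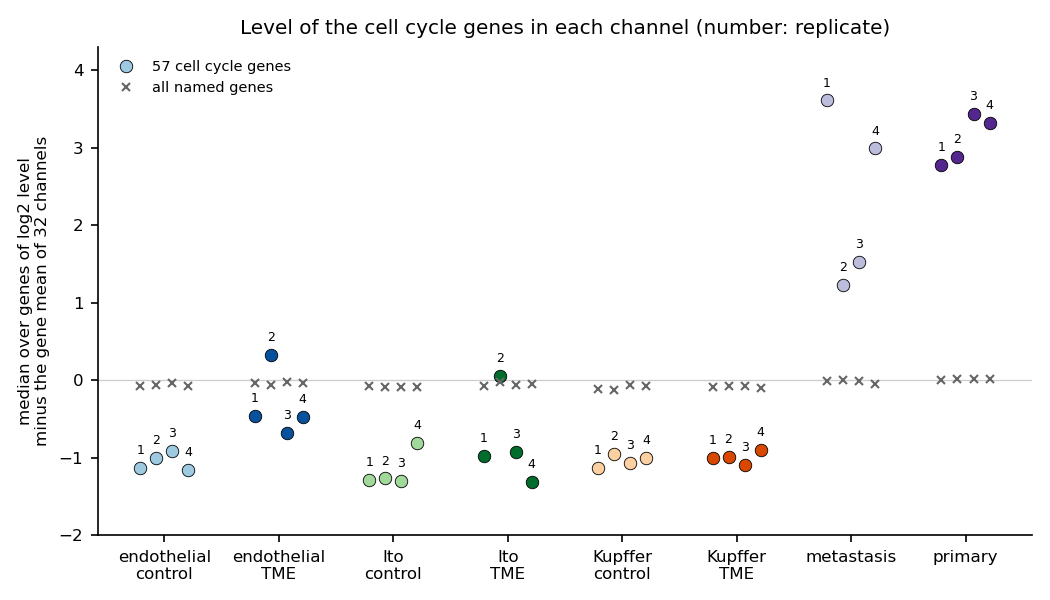
Median over the 57 cell cycle genes of the log2 level centred per gene (y axis), for each of the 32 channels by group (x axis), beside the same median over all named genes. The 8 tumor channels lie between 1.23 and 3.61, above every liver channel, and the all-gene medians lie near 0.

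Of the 57 genes, 38 were well above background in all 32 channels and 53 in all 8 tumor channels. Another view of the same contrast is that 15 genes were measured in every tumor channel but missed the background limit in at least 1 liver channel, among them *Ccna2*, *Ccnb1*, *Cdk1*, *Top2a*, *Bub1* and *Kif11*. *Ccne2*, an E type cyclin, was not well above background in any channel, and *Aurkb*, the kinase of the chromosomal passenger complex, was so only in replicate 2 of KC and of KT, so neither gave a comparison of measured levels. Among the other 55 genes, each well above background in all 4 channels of at least 1 group, the group with the highest mean was TP for 46 and TM for 5 (*Ccnd1*, *Cdk2*, *Cdk4*, *E2f1* and *Mcm2*). The exceptions were *Ccnd3* (EC), *Tyms* (IC), *Cdkn1a* (KC) and *Ccnd2* (KT). The share of all genes with their highest mean in each group was not counted.

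**Figure D2:**
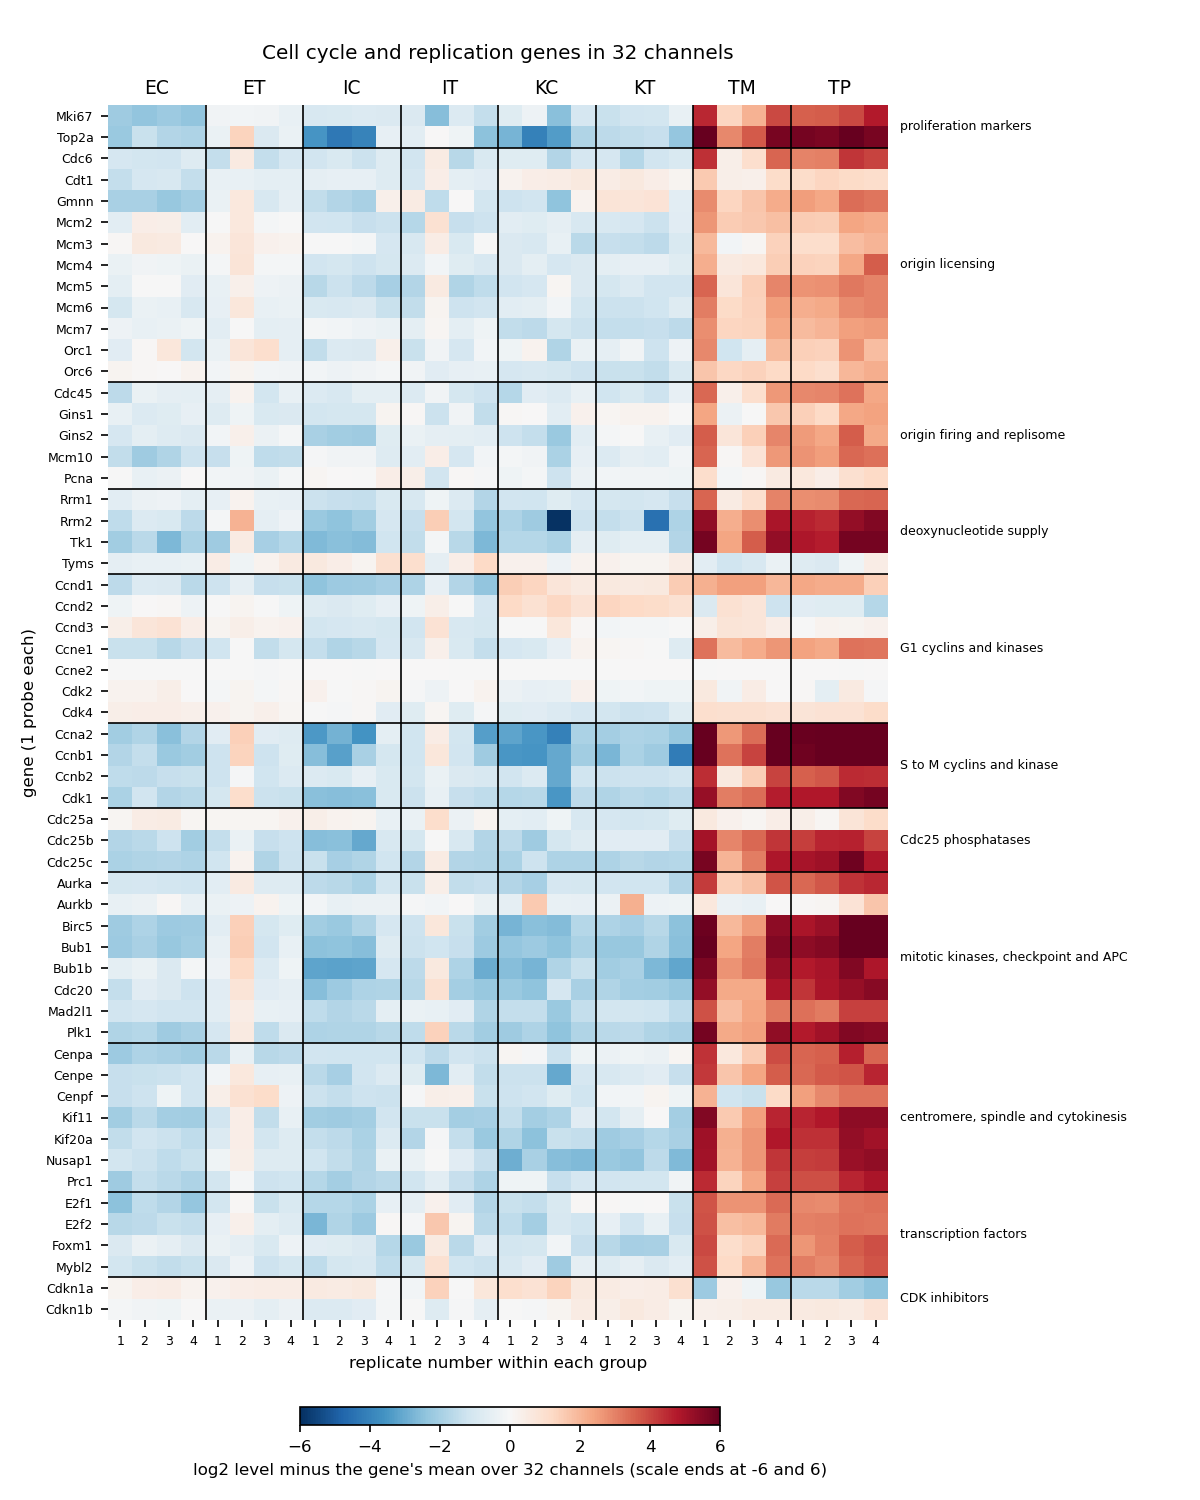
Log2 level of each of the 57 genes centred on its mean over the 32 channels (colour), genes in rows by role and channels in columns by group. Most rows are high in the TP and TM columns, TM replicates 2 and 3 are paler than TM replicates 1 and 4, and *Ccnd2*, *Cdkn1a* and *Tyms* run the other way.

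Tumor and Kupffer arrays shared a slide and carried both dyes in equal numbers, so the contrast of the 8 tumor with the 8 Kupffer channels was the main comparison of tumor with liver cells. At an adjusted p under 0.05, 50 of 57 members were higher in the tumor channels and 3 were lower, where 31.9% of all named genes were higher and 24.1% lower. The median difference over the members was 3.50 on the log2 scale, against 0.10 over all genes, and 54 of the 57 differences were above 0 (57.6% of all genes). With an adjusted p under 0.001 and at least a 4-fold difference, 42 members were higher and 1 lower, against 8.06 and 10.5% of all genes. The 4 genes not called were *Ccnd3*, *Ccne2*, *Aurkb* and *Cdkn1b*.

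Comparisons within a dye gave counts of like size. In TM minus KC (both Cy3), 45 members were higher and 3 lower (24.7 and 19.7% of all genes), and in TP minus KT (both Cy5), 49 were higher and 2 lower (27.5 and 21.3%), with median log2 differences of 3.29 and 3.93. The endothelial and Ito comparisons cross the slides, so slide and cell type cannot be told apart in them. There, 45 members were higher in TM than in EC and 1 lower (21.7 and 18% of all genes), 48 higher in TM than in IC and 2 lower (24.1 and 19.4%), 49 higher in TP than in ET and 2 lower (23.5 and 18.5%), and 50 higher in TP than in IT and 2 lower (24.7 and 19.9%). These 6 comparisons share their tumor samples. In all 6, 42 members were higher and *Cdkn1a* was lower, where 12.5% of all genes were higher in all 6 and 11% lower. For 38 of the 57 genes every tumor channel exceeded every liver channel, which held for 9.58% of all genes.

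Both proliferation markers were higher in tumor cells. *Mki67*, the nuclear antigen by which dividing cells are counted (probe at mm9 chr7:142881591-142881650), had log2 levels of 8.08, 8.48, 6.26 and 7.79 in KC, 7.43, 7.65, 7.70 and 8.34 in KT, 13.33, 10.10, 10.89 and 12.77 in TM, and 12.36, 12.43, 12.74 and 13.55 in TP. *Top2a*, the topoisomerase that untangles replicated chromosomes (probe at mm9 chr11:98855522-98855581), stood at 3.46, 2.20, 2.90 and 4.45 in KC, 4.67, 4.76, 4.86 and 3.92 in KT, 12.48, 9.14, 9.92 and 11.95 in TM, and 11.98, 11.90, 12.62 and 11.97 in TP. For both genes every tumor channel was above every Kupffer channel, and TM replicates 2 and 3 were the lowest of the tumor channels. The tumor minus Kupffer difference was 4.56 for *Mki67* (SE 0.36, adjusted p = 1.46e-11, limma) and 7.59 for *Top2a* (SE 0.52, adjusted p = 7.05e-13). *Top2a* was well above background in 1 of the 4 KC channels, so the size of its difference rests partly on dim spots.

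All 11 licensing genes were higher in the tumor channels, by 0.58 to 4.08 on the log2 scale with a median of 2.75. *Mcm5*, a subunit of the helicase (probe at mm9 chr8:77651350-77651410), measured 8.72, 8.85, 9.96 and 9.0 in KC, 8.78, 9.04, 8.72 and 8.70 in KT, 13.36, 10.59, 11.28 and 12.78 in TM, and 12.54, 12.58, 13.04 and 12.82 in TP. The groups did not overlap, and the difference was 3.40 (SE 0.33, adjusted p = 7.46e-10). The other helicase subunits lay close to it, with differences of 2.75 for *Mcm2*, 2.30 for *Mcm3*, 2.40 for *Mcm4*, 3.17 for *Mcm6* and 3.50 for *Mcm7*. Of the loading factors, *Cdc6* was higher by 4.08, the origin recognition subunits *Orc1* and *Orc6* by 1.88 and 2.66, and *Cdt1*, which brings the helicase to the origin, by 0.58, the smallest difference of the role. In TM minus KC alone, *Cdt1* (0.42, adjusted p = 0.17) and *Orc1* (1.33, adjusted p = 0.115) were not called. *Orc1* was well above background in 2 of 4 TM channels. *Gmnn*, the inhibitor of *Cdt1*, was higher by 2.79. All 5 genes of origin firing and the replisome were higher as well, from *Pcna*, the sliding clamp, at 0.94 to *Cdc45*, a part of the active helicase, at 3.29. Of these, *Gins1* was not called in TM minus KC alone (0.98, adjusted p = 0.0874).

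Of the enzymes that supply deoxynucleotides, the ribonucleotide reductase subunits *Rrm1* and *Rrm2* were higher by 3.65 and 6.92 and thymidine kinase *Tk1* by 5.96. *Tyms*, thymidylate synthase (probe at mm9 chr5:30385578-30385637), went the other way: its levels were 9.01, 8.98, 8.41 and 8.97 in KC, 9.01, 8.89, 8.89 and 9.18 in KT, 8.09, 7.52, 7.76 and 8.35 in TM, and 7.96, 7.89, 8.49 and 9.18 in TP. The groups overlapped through TP replicates 3 and 4, and the difference was -0.76 (SE 0.21, adjusted p = 2.97e-03). In TP minus KT alone, *Tyms* was not called (-0.61, adjusted p = 0.0991).

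The S to M phase cyclins and *Cdk1* showed the widest gaps, with 4 of 4 higher and a median of 7.39. *Ccnb1*, cyclin B1 (probe at mm9 chr13:101548722-101548781), had levels of 2.97, 2.93, 3.41 and 4.41 in KC, 3.73, 4.59, 4.33 and 2.28 in KT, 13.15, 9.74, 10.54 and 12.47 in TM, and 12.30, 12.48, 13.08 and 13.26 in TP. *Ccna2*, cyclin A2 (mm9 chr3:36463978-36464037), had 3.02, 2.68, 2.14 and 4.31 in KC, 4.16, 4.32, 4.31 and 3.93 in KT, 13.13, 8.77, 9.53 and 12.38 in TM, and 12.12, 12.26, 13.31 and 13.22 in TP. *Cdk1*, the kinase these cyclins switch on, had 5.19, 5.23, 3.40 and 5.34 in KC, 5.08, 5.30, 5.18 and 5.34 in KT, 12.11, 9.96, 10.25 and 11.61 in TM, and 11.71, 11.70, 12.47 and 12.62 in TP. None of the 3 genes overlapped between tumor and Kupffer channels, and in each TM replicates 2 and 3 were the lowest tumor channels. The differences were 8.55 for *Ccnb1* (SE 0.49, adjusted p = 1.72e-14), 8.23 for *Ccna2* (SE 0.57, adjusted p = 1.14e-12) and 6.55 for *Cdk1* (SE 0.36, adjusted p = 8.02e-15). *Ccnb1* was well above background in 2 of the 8 Kupffer channels and *Ccna2* in 4, so their Kupffer levels, and the size of the differences, rest partly on dim spots. *Ccnb2* was higher by 4.75.

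The genes that drive and check mitosis followed the B cyclins. The phosphatases that activate CDKs were higher by 1.25 (*Cdc25a*), 5.26 (*Cdc25b*) and 6.27 (*Cdc25c*). Of the 8 mitotic kinase, checkpoint and anaphase-promoting complex genes 7 were higher, including the kinases *Plk1* (6.47, SE 0.45) and *Aurka* (4.78), the spindle checkpoint genes *Bub1* (7.35), *Bub1b* (6.90) and *Mad2l1* (4.65), the activator *Cdc20* (6.29) and *Birc5*, or survivin (6.95). All 7 genes of the centromere, spindle and cytokinesis were higher, among them the kinesins *Kif11* (5.49) and *Kif20a* (6.07), the spindle proteins *Nusap1* (6.46) and *Prc1* (4.48) and the centromere histone *Cenpa* (3.50). *Cenpf* was not called in TM minus KC alone (1.26, adjusted p = 0.0526). *Bub1*, *Bub1b*, *Cdc25c*, *Kif11* and *Cenpf* were not well above background in any Kupffer channel, so for these the difference is bounded from below at 13.2, 13.6, 6.07, 6.11 and 1.52-fold, against the lowest signal that counts as measured.

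**Figure D3:**
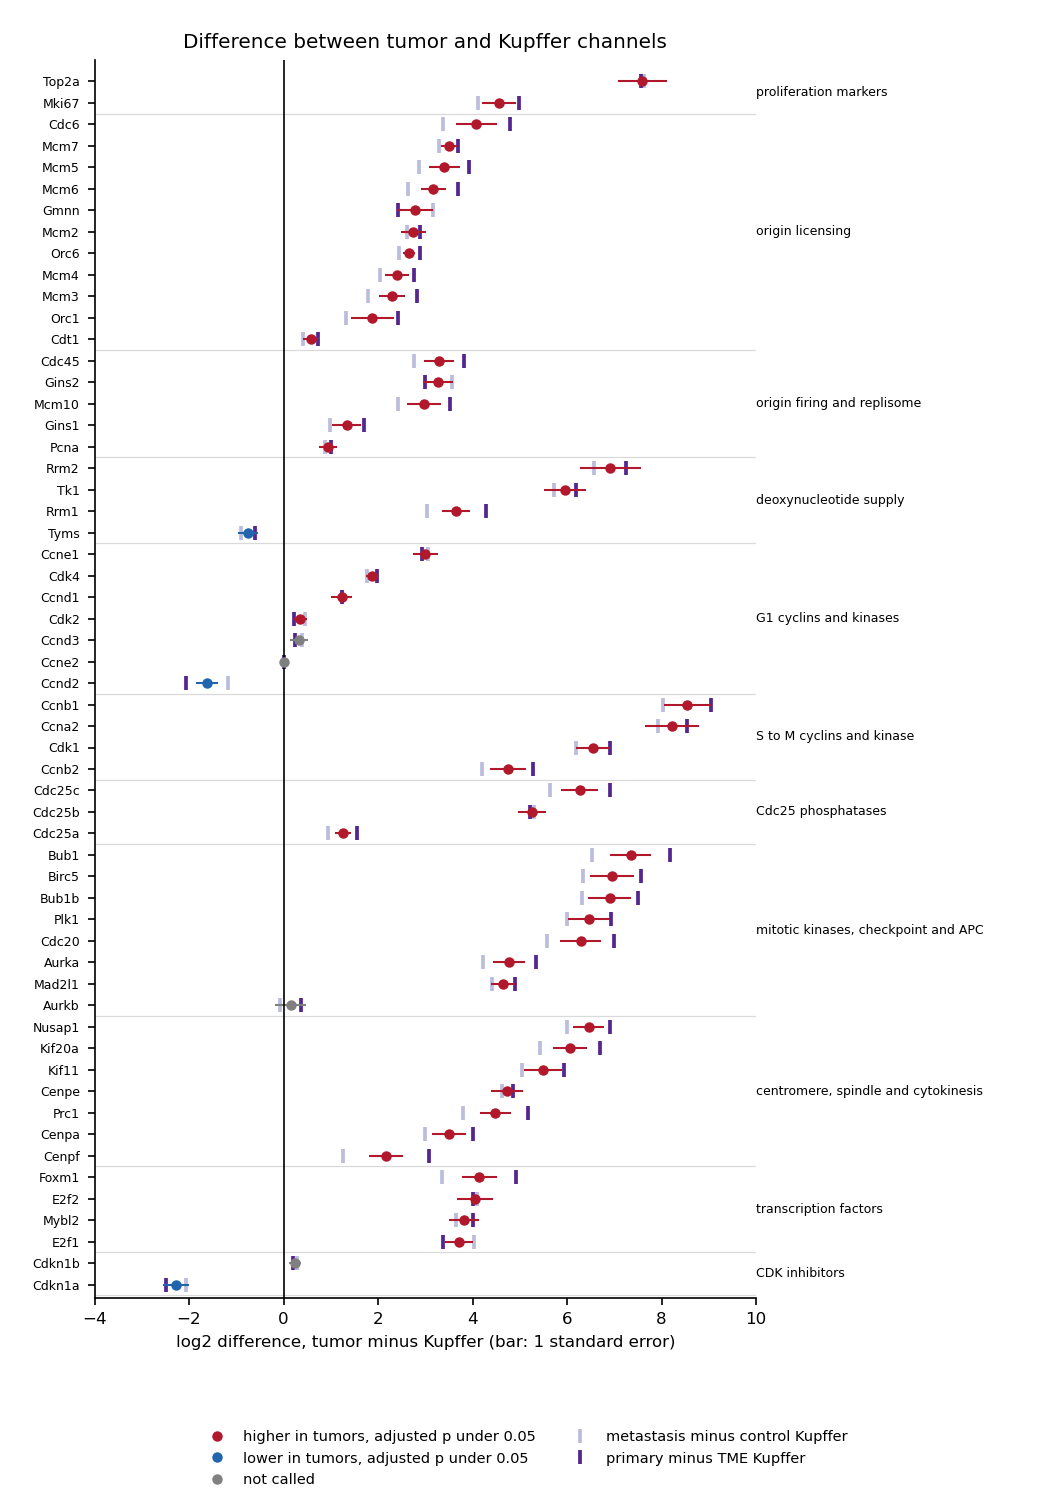
Difference of the mean log2 level of 8 tumor and 8 Kupffer channels for each of the 57 genes with its standard error, grouped by role. S to M phase, mitotic and spindle genes reach the largest differences, with *Ccnb1* at 8.55, whereas the G1 cyclins and kinases have a median of 0.35 and *Cdkn1a* lies at -2.28.

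The 4 transcription factors were higher by 3.71 to 4.14. *E2f1* (mm9 chr2:154385798-154385857), an activator of S phase genes, had levels of 6.93, 6.84, 7.37 and 8.34 in KC, 8.33, 8.24, 8.28 and 6.95 in KT, 12.05, 10.96, 10.99 and 11.66 in TM, and 11.14, 11.13, 11.47 and 11.59 in TP. *Foxm1*, an activator of G2 and M phase genes, had 6.50, 6.55, 7.40 and 6.20 in KC, 5.93, 5.61, 5.64 and 6.67 in KT, 11.52, 8.64, 8.93 and 10.99 in TM, and 10.21, 10.59, 11.23 and 11.47 in TP. Neither gene overlapped between the tumor and Kupffer channels, with differences of 3.71 for *E2f1* (SE 0.29, adjusted p = 1.46e-11) and 4.14 for *Foxm1* (SE 0.37, adjusted p = 2.02e-10). *E2f2* was higher by 4.06 and *Mybl2*, the B-Myb subunit that joins the MuvB core, by 3.82.

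The promoters of these genes carry the elements named above in unequal shares. The RefSeq promoter table (assembly GRCm38.p6, 250 bases before to 50 after each gene start) held a window for 45 of the 57 members and for 27025 genes in all. E2F letters (TTTCCCGC, TTTGGCGC, TTTCGCGC or TTTGCCGC, either strand) were in the windows of 11 of 45 members, 24.4%, and of 2.6% of all genes. CHR letters (TTTGAA, either strand) were in 15 of 45, 33.3%, and in 20.2% of all genes. CCAAT, the letters bound by NF-Y, was on either strand in 33 of 45, 73.3%, and in 41.1% of all genes. By role, E2F letters were in 7 of the 9 origin licensing genes with a window and in 0 of 7 mitotic kinase, checkpoint and anaphase-promoting complex genes, while CHR letters were in 1 of those 9 and in 4 of those 7. Such matches are descriptions of letters and were not tested as binding sites. The 250 bases before the start are printed for 2 licensing genes and for *Cdk1*, *Ccnb1* and *Top2a*, whose differences were among the widest, with every E2F, CHR and CCAAT match on either strand in capitals. In *Mcm5* and *Mcm6* a pair of E2F matches on opposite strands overlap and form a single run of capitals.
*Mcm5* (chr8:75109259-75109508, plus strand): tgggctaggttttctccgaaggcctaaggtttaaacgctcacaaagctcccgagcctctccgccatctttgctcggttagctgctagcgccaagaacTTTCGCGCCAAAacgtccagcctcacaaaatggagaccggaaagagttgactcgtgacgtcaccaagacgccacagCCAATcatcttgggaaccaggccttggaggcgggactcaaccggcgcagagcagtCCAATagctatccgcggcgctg
*Mcm6* (chr1:128359706-128359955, minus strand): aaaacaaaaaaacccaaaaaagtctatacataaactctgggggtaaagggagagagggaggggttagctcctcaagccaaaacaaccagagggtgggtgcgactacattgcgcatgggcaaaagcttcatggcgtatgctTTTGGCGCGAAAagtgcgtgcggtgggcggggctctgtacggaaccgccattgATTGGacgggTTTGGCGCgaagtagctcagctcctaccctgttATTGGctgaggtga
*Cdk1* (chr10:69352913-69353162, minus strand): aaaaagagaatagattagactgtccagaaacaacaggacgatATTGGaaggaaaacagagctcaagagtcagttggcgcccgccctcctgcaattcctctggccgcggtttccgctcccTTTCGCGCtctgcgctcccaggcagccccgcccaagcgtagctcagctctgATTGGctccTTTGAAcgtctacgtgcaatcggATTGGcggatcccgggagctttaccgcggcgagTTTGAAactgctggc
*Ccnb1* (chr13:100786487-100786736, minus strand): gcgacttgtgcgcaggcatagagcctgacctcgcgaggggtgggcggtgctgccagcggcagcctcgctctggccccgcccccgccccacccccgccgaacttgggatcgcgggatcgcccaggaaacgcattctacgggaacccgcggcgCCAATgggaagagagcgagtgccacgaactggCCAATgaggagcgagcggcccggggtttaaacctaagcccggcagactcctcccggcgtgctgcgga
*Top2a* (chr11:99024190-99024439, minus strand): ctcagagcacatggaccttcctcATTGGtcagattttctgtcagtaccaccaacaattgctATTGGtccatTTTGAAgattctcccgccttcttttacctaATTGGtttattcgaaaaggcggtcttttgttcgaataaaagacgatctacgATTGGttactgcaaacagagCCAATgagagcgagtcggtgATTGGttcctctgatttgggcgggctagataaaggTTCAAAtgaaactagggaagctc

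Against this background of S and M phase genes, the G1 cyclins and their kinases were uneven, with 4 of 7 higher, 1 lower and a median of 0.35 in tumor minus Kupffer. Cyclin E1, *Ccne1*, had levels of 7.98, 8.05, 8.49 and 9.19 in KC, 9.10, 9.04, 8.93 and 8.21 in KT, 12.24, 10.87, 11.20 and 11.63 in TM, and 11.40, 11.22, 12.24 and 12.17 in TP, a difference of 3.00 (SE 0.26, adjusted p = 7.5e-11) without overlap. *Cdk4*, the partner of the D cyclins, was higher by 1.87 and *Cdk2*, the partner of cyclin E, by 0.35.

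The 3 D cyclins, which link growth signals to the cycle, each had their own order. *Ccnd1* (mm9 chr7:152116202-152116261) was lowest in IC (9.03, 9.27, 9.31 and 9.43), followed by EC (9.86, 10.61, 10.59 and 9.80), and was far higher in KC (12.93, 12.74, 12.18 and 11.98) and KT (12.03, 11.99, 12.04 and 12.98). In TM it stood at 13.55, 13.88, 13.92 and 13.44 and in TP at 13.75, 13.66, 13.66 and 12.88, so only TP replicate 4 fell within the Kupffer range, and the difference from Kupffer cells was 1.23 (SE 0.22, adjusted p = 3.11e-05). *Ccnd2* (mm9 chr6:127098696-127098755) had its highest levels in Kupffer cells, at 13.29, 13.00, 13.34 and 12.98 in KC and 13.37, 13.28, 13.19 and 13.00 in KT, against 11.22, 12.99, 12.82 and 10.87 in TM and 11.43, 11.38, 11.38 and 10.40 in TP. Its difference was -1.62 (SE 0.24, adjusted p = 1.52e-06), and among the tumor channels only TM replicate 2 reached the Kupffer range. *Ccnd3* differed little, at 12.05, 12.04, 12.78 and 12.15 in KC, 11.91, 11.96, 11.97 and 12.08 in KT, 12.44, 12.85, 12.82 and 12.50 in TM, and 12.07, 12.28, 12.23 and 12.33 in TP (0.32, SE 0.19, adjusted p = 0.169).

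Of the 2 CDK inhibitors, *Cdkn1a* (p21) was the member most strongly lower in tumor cells. By its brightest probe (mm9 chr17:29237377-29237436) it had levels of 13.59, 13.45, 13.95 and 13.17 in KC, 13.07, 12.99, 13.03 and 13.57 in KT, 10.42, 12.83, 12.35 and 10.30 in TM, and 10.99, 11.00, 10.51 and 10.20 in TP. All tumor channels were below all Kupffer channels, with TM replicates 2 and 3 the nearest to them, and the difference was -2.28 (SE 0.28, adjusted p = 7.26e-08). The other 2 probes of *Cdkn1a* did not run together. The probe at chr17:29235299-29235358, which the annotation ties to no RefSeq transcript, gave -1.77, and the probe at chr17:29227986-29228045, tied to a single RefSeq transcript where the brightest is tied to 2, gave 1.76 (adjusted p = 6.52e-05), with group means of 4.68 in KC, 4.5 in KT, 6.81 in TM and 5.88 in TP. *Cdkn1a* was the only member whose probes were called in opposite directions in that contrast. *Cdkn1b* (p27) did not pass the test by its brighter probe, with 10.79, 10.74, 10.98 and 11.33 in KC, 11.19, 11.43, 11.29 and 10.98 in KT, 11.13, 11.18, 11.31 and 11.32 in TM, and 11.37, 11.40, 11.31 and 11.65 in TP (0.24, SE 0.12, adjusted p = 0.0907). Its dimmer probe was called higher in the same contrast. Both probes were called higher in TM than in EC and IC and in TP than in ET and IT, comparisons that cross the slides.

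**Figure D4:**
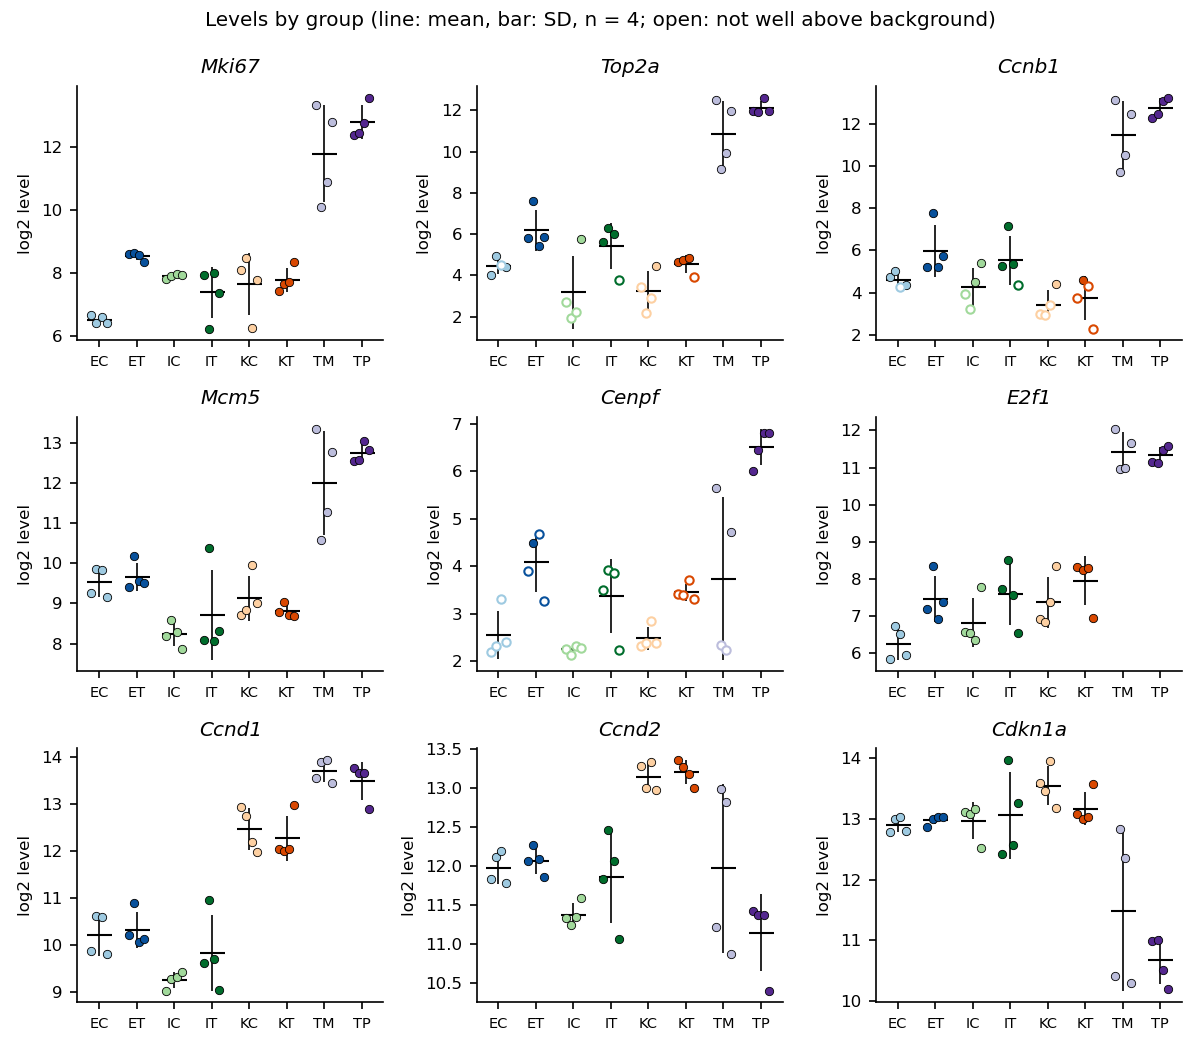
Log2 level in each of the 32 channels by group for *Mki67*, *Top2a*, *Ccnb1*, *Mcm5*, *Cenpf*, *E2f1*, *Ccnd1*, *Ccnd2* and *Cdkn1a*, each panel with its own y axis and the group mean as a bar. *Mki67* lies between 10.10 and 13.55 in tumor channels and at most 8.62 in liver channels, whereas *Cdkn1a* lies between 12.99 and 13.95 in Kupffer channels and at most 12.83 in tumor channels.

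In the endothelial and Ito channels *Mcm5*, *Ccnb1* and *Cdk1* stayed below their tumor levels. *Mcm5* measured 9.26, 9.85, 9.84 and 9.16 in EC, 9.41, 10.18, 9.56 and 9.50 in ET, 8.18, 8.58, 8.30 and 7.86 in IC, and 8.10, 10.38, 8.06 and 8.31 in IT. *Ccnb1* measured 4.74, 5.04, 4.26 and 4.38 in EC, 5.21, 7.79, 5.22 and 5.74 in ET, 3.93, 3.20, 4.51 and 5.40 in IC, and 5.27, 7.15, 5.34 and 4.34 in IT. *Cdk1* measured 5.01, 5.74, 5.13 and 5.24 in EC, 5.84, 7.93, 5.60 and 5.58 in ET, 4.40, 4.35, 4.39 and 5.96 in IC, and 5.60, 6.46, 5.53 and 5.37 in IT. Replicate 2 was the highest TME channel of both cell types for these 3 genes, and all of its values were below the lowest tumor channel of the gene.

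*Ccna2* in Ito cells had 2.74, 3.36, 2.58 and 5.58 in IC and 4.98, 6.63, 5.09 and 2.87 in IT. *Ccne1* had 7.61, 7.64, 7.30 and 7.57 in EC, 7.76, 8.95, 7.47 and 7.92 in ET, 7.53, 7.16, 7.30 and 7.97 in IC, and 7.99, 9.29, 8.04 and 7.54 in IT. *Foxm1* had 6.72, 7.23, 7.04 and 6.72 in EC, 7.16, 7.03, 6.69 and 7.29 in ET, 6.90, 6.86, 6.70 and 5.85 in IC, and 5.35, 8.11, 5.98 and 6.91 in IT. TME and control channels of *Ccne1* and *Foxm1* overlapped in both cell types.

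Of the remaining named genes, *Ccnd1* had 10.21, 10.88, 10.06 and 10.12 in ET and 9.61, 10.95, 9.69 and 9.05 in IT, and lay below the tumor channels. *Ccnd2* had 12.07, 12.27, 12.09 and 11.86 in ET and 11.84, 12.47, 12.07 and 11.07 in IT, and *Ccnd3* had 12.26, 12.42, 12.27 and 12.35 in ET and 10.91, 12.96, 11.11 and 11.01 in IT. Both overlapped the tumor channels. *Cdkn1a* had 12.78, 13.00, 13.02 and 12.80 in EC, 12.87, 13.00, 13.02 and 13.03 in ET, 13.11, 13.07, 13.16 and 12.51 in IC, and 12.42, 13.97, 12.57 and 13.26 in IT, so that of the tumor channels only TM replicate 2, at 12.83, came within the range of these fractions.

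A separate list of 73 cell cycle genes that are not among the 57 was read in the same contrast. It uses the same channels and was chosen with earlier results of these data known, so it is not independent support. Of these, 59 were higher in tumor than in Kupffer channels and 9 lower, with a median difference of 2.79, where 31.9% of all genes were higher and 24.1% lower. The 9 lower genes included the CDK inhibitors *Cdkn2b* (-6.97), *Cdkn1c* (-4.66) and *Cdkn2a* (-3.70), the pocket proteins *Rb1* and *Rbl1*, and also *Cdk6*, *Chek1* and *Pttg1*. Among the highest were *Anln* (8.45), a scaffold of the cleavage furrow, and *Cdca3* (7.67), a trigger of mitotic entry.

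The primary cancer cells were compared with the metastasis cells to see whether the members differed with the site of the tumor. Of the 57 genes 1 was higher in TP, 0 were lower, 49 of 57 differences were above 0 and the median was 0.87, where 2.09% of all genes were higher, 0.763% lower and 50.7% above 0. At an unadjusted p under 0.05, 21 members were higher and 1, *Ccnd2*, was lower, against 9.4 and 7.07% of all genes. The gene called was *Cenpf*, a kinetochore protein that accumulates in G2 (mm9 chr1:191464978-191465037), with levels of 5.65, 2.35, 2.24 and 4.72 in TM and 6.01, 6.44, 6.81 and 6.81 in TP. Every TP channel was above every TM channel, and *Cenpf* was well above background in 2 of the 4 TM channels. The difference was 2.78 (SE 0.51, adjusted p = 0.0019), but it was 0.82 after another background correction (normexp), and it was not called when replicate 2 or replicate 3 was left out (adjusted p = 0.0992 and 0.0752) or when the 2 groups were fitted alone (adjusted p = 0.318). A dimmer probe of *Cdk1*, 1 of its 3, was also called higher in TP.

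The difference between TP and TM was not shared by the 4 arrays. The members higher in TP numbered 6 of 57 on array 1, 48 on array 2, 51 on array 3 and 43 on array 4, with medians of -0.78, 1.74, 1.85 and 0.5. The medians over all genes on these arrays were 0 to 0.01. TM replicates 2 and 3 were the lowest 2 of the 8 tumor channels for 46 genes, and the highest 2 for 4 genes, *Ccnd1*, *Ccnd2*, *Ccnd3* and *Cdkn1a*. The share of all genes with either order was not counted, so it cannot be read as particular to the members. The myeloid gene *Mpo* moved with these channels, at 8.75, 3.72, 3.60 and 8.61 in TM and between 8.34 and 8.82 in TP, and its part in the result was not tested. The 8 neutrophil and marrow myeloid markers, to which *Mpo* belongs, had a median difference of 0.05 in TP minus TM, with 0 called. *Ngp*, *Ltf* and *Ly6g* were not well above background in any tumor channel. That contrast averages TM replicates 2 and 3 with TM replicates 1 and 4, so it does not show whether the set followed replicates 2 and 3. TM replicate 1 had a TP channel as its closest channel. *Ccna2* (1.78, adjusted p = 0.271), *Birc5* (1.66, adjusted p = 0.197) and *Bub1* (1.64, adjusted p = 0.15) had the largest differences among genes not called, and *Ccnd2* (-0.83, adjusted p = 0.204) and *Cdkn1a* (-0.80, adjusted p = 0.317) lay at the other end. For *Ccnd3* all TP channels were below all TM channels (-0.42, adjusted p = 0.48).

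TME and control fractions were compared to see whether liver cells near a tumor carried more cell cycle mRNA. In endothelial cells *Mki67* rose, 1 of 57 members higher and 0 lower (0.704 and 0.754% of all genes). Its levels were 6.66, 6.42, 6.60 and 6.40 in EC and 8.60, 8.62, 8.58 and 8.35 in ET. The groups were far apart, the array differences were 1.94, 2.20, 1.98 and 1.94, and both *Mki67* probes were called. The fitted difference was 2.02 (SE 0.51, adjusted p = 0.0471), close to the threshold: it was not called when any single replicate was left out (adjusted p from 0.0887 to 0.277) nor with the deposited table, and was called without the 6 libraries that stand apart (adjusted p = 0.0122). None of those 6 is an endothelial library, so that fit changes the spread estimated over all groups and not the difference.

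The other members in endothelial cells had mostly positive differences that did not pass the test. The median difference was 0.55, 47 of 57 were above 0 (52.9% of all genes), 13 had an unadjusted p under 0.05 and were higher (4.52% of all genes), and for 24 genes all ET channels were above all EC channels (8.6% of all genes). *Top2a* had 4.02, 4.94, 4.51 and 4.42 in EC and 5.84, 7.61, 5.41 and 5.87 in ET (1.71, adjusted p = 0.492), and *Ccna2* had 4.08, 4.37, 3.67 and 4.42 in EC and 5.51, 7.62, 5.51 and 5.43 in ET (1.88, adjusted p = 0.499). *Gmnn* differed by 1.72 (adjusted p = 0.155), *Birc5* by 1.83 (adjusted p = 0.306), and *Bub1*, measured in no EC channel, by at least 1.32-fold (adjusted p = 0.146). Without the 6 libraries *Gmnn* (1.72, adjusted p = 0.00197) and *E2f1* (1.20, adjusted p = 0.0117) were called higher beside *Mki67*, 3 of 57 where 2.51% of all genes were. The endothelial libraries are the same in that fit, and these calls come from the changed estimate of the spread alone. *Ccnd3* and *Cdkn1b* were lower in all ET than in all EC channels by 0.35 and 0.28 in size, and were not called.

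A single library stood out in that comparison, ET replicate 2, which was the highest of the 8 endothelial channels for 43 of the 57 genes. How many of all genes were highest in that library was not counted. Sums of cell type markers also differed between the EC and ET groups, given here as ranges over the channels of each group. The 8 hepatocyte markers summed to 34600 to 42000 intensity units in EC and 14300 to 35000 in ET. Of these, 3 were called lower in ET, with a median difference of -1.04, whereas 0 neutrophil, Kupffer or endothelial markers were called. The 8 neutrophil and marrow myeloid markers summed to 1030 to 1460 intensity units in EC and 3920 to 8360 in ET, the 8 Kupffer markers to 49800 to 70600 and 80500 to 119000, and the 8 endothelial markers to 43300 to 50300 and 27200 to 38900. The 6 epithelial markers summed to 6460 to 6790 in EC and 2190 to 12000 in ET, with a median of 2310 in ET. *Mpo* was at 3.82, 4.02, 2.28 and 3.91 in EC and 5.81, 8.88, 4.58 and 5.81 in ET, and the globin gene *Hbb-b1* at 13.04 in ET replicate 2 against 8.77, 6.62 and 8.30 in the other ET channels. The part of these cells in the result was not tested. *Mki67* itself was at 8.62 in ET replicate 2, close to the 8.60 and 8.58 of ET replicates 1 and 3.

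**Figure D5:**
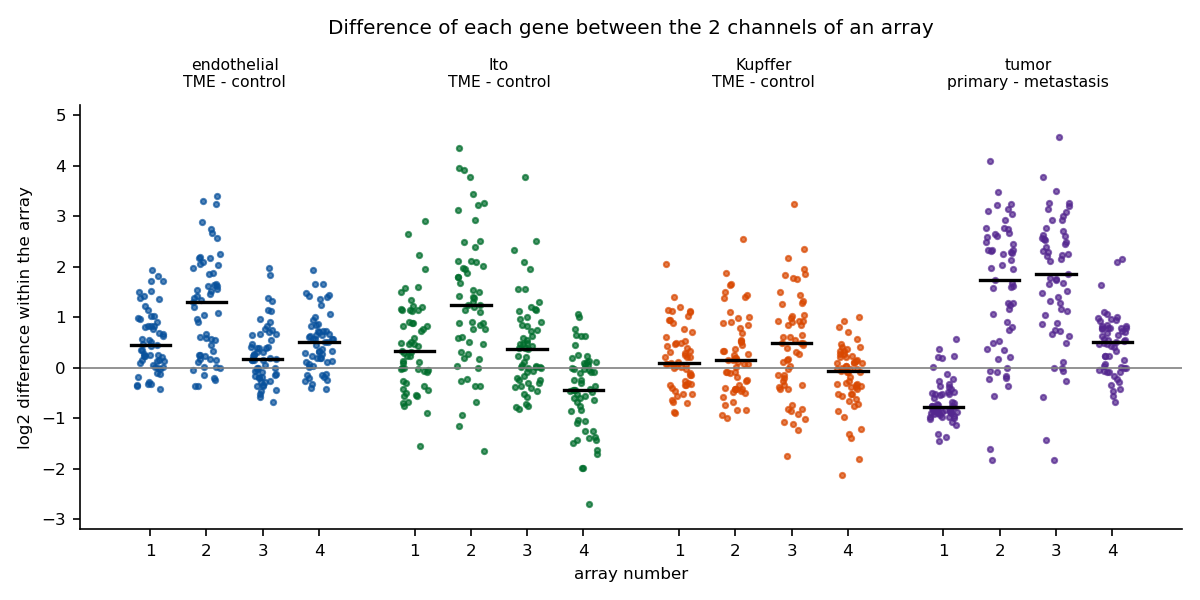
Difference between the Cy5 and the Cy3 channel of each array (TME minus control, or TP minus TM) for the 57 genes, by comparison and array on the x axis, log2 units on the y axis. The medians are 0.44, 1.31, 0.17 and 0.51 on the endothelial arrays, and array 4 runs below 0 for Ito (-0.44) and Kupffer cells (-0.07) whereas arrays 1 to 3 run above.

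In Ito cells 0 members were called in either direction with all libraries (0.322 and 0.025% of all genes), with a median of 0.40, 44 of 57 differences above 0 (53.4% of all genes) and 5 members higher at an unadjusted p under 0.05 (6.7% of all genes). Members higher in TME numbered 36, 48, 38 and 17 of 57 on arrays 1 to 4, so array 4 ran against the other arrays for these genes too. *Top2a* had 2.72, 1.96, 2.25 and 5.78 in IC and 5.62, 6.30, 6.02 and 3.79 in IT: replicate 4 alone kept the groups from separating, and the difference was 2.26 (SE 0.73, adjusted p = 0.276). *Top2a* was well above background in 1 of the 4 IC channels, so the size of its difference, with or without replicate 4, rests partly on dim spots. Over the alternatives run it ranged from 0.47 to 3.67. *E2f1* had 6.56, 6.55, 6.36 and 7.79 in IC and 7.72, 8.51, 7.57 and 6.53 in IT, with the same reversal in the libraries labelled replicate 4.

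Without replicate 4, 4 members were higher in TME Ito cells and 0 lower, where 5.22% of all genes were higher and 3.92% lower: *Top2a* (3.67, adjusted p = 0.00178), *E2f2* (2.81, adjusted p = 0.00164), *Cdc25b* (2.03, adjusted p = 0.00665) and *E2f1* (1.44, adjusted p = 0.0159). Those 4 are 7.02% of the members, near the share of all genes. Without the 6 libraries 6 were higher, *Gmnn* and *Cdkn1b* joining these 4, and *Cdk4* (-0.71) and *Cdc25a* (-0.62) were lower, with 8.11 and 6.91% of all genes. That fit has only IT replicates 1 and 3 for the TME, and the libraries left out were chosen from their values on these same arrays. *S100a8*, a neutrophil gene, had 8.56, 8.48, 8.40 and 12.05 in IC and 12.12, 11.87, 11.43 and 8.39 in IT and so moved with the same libraries, and its part in the result was not tested. The 6 epithelial markers summed to 4990 to 6430 intensity units in IC and 4670 to 153000 in IT, with a median of 5170 in IT. Their part was not tested either. *Mki67* did not follow *Top2a* here, with 7.81, 7.89, 7.96 and 7.94 in IC and 7.93, 6.23, 7.99 and 7.38 in IT (-0.52, adjusted p = 0.797).

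In Kupffer cells 0 members were called as well (0.422 and 0.0532% of all genes). The median difference was 0.14, 34 of 57 were above 0 (51.4% of all genes) and 2 members were higher at an unadjusted p under 0.05 (3.86% of all genes). *Gmnn* had the largest difference, with 6.76, 6.88, 5.60 and 8.22 in KC and 8.81, 8.76, 8.85 and 7.37 in KT (1.58, SE 0.53, adjusted p = 0.358). As in Ito cells, the libraries labelled replicate 4 lay on the side of the other group. Without replicate 4 *Gmnn* was called (2.40, adjusted p = 0.0133), 1 of 57 where 1.89% of all genes were higher, and without the 6 libraries *Gmnn* (1.99), *E2f1* (1.40) and *Cdkn1b* (0.54) were higher and *Cdk4* (-0.48) lower, with 2.98 and 2.79% of all genes. The fit without the 6 has only KC replicates 1 and 2 as controls. *S100a8* was at 10.55, 10.55, 10.95 and 12.25 in KC and 12.01, 12.12, 12.12 and 10.72 in KT.

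Whether the change differed between cell types was tested as a contrast of the TME minus control differences. With all libraries 0 members were called for any pair of cell types (of all genes, 0.113% were higher and 0.0344% lower for Ito against endothelial cells, 0.075 and 0.0313% for Kupffer against endothelial cells, and 0 and 0.00313% for Kupffer against Ito cells). At an unadjusted p under 0.05, 2 members were higher and 1 lower for Ito against endothelial cells (3.22 and 1.98% of all genes), 1 higher and 3 lower for Kupffer against endothelial cells (2.39 and 1.77%), and 0 in either direction for Kupffer against Ito cells (1.53 and 2.76%). For *Mki67* the Ito change minus the endothelial change was -2.53 (SE 0.72, adjusted p = 0.295) and the Kupffer change minus the endothelial change -1.89 (SE 0.72, adjusted p = 0.987). Without the 6 libraries, *Cdkn1b* was called in both (1.01 for Ito and 0.82 for Kupffer against endothelial cells) and *Cdk4* in the first (-0.55), where 3.64 and 2.85% of all genes were called higher and lower in the first and 0.785 and 0.675% in the second. IT is then only replicates 1 and 3, and KC only replicates 1 and 2. *Cdkn1b* was at 10.72, 10.62, 10.59 and 10.79 in EC, 10.42, 10.47, 10.23 and 10.47 in ET, 9.99, 9.99, 10.17 and 10.72 in IC, and 10.82, 10.03, 10.75 and 10.28 in IT. Its ET channels were all below its EC channels, and its Ito groups overlapped through IC replicate 4 and IT replicate 2.

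Between the control fractions the members differed in single genes. Ito minus endothelial cells, within slide 1, gave 1 gene higher and 3 lower (5.29 and 7.16% of all genes): *Tyms* was higher by 1.00, and *Ccnd3* (-1.63, adjusted p = 1.66e-04), *Bub1b* (-2.14, adjusted p = 0.0345) and *Cdk4* (-0.55, adjusted p = 0.034) were lower. *Bub1b* was well above background in 1 of the 4 IC channels. The calls of *Bub1b* (-2.69 to -0.41) and *Cdk4* (-0.61 to -0.38) were each lost in 8 of 16 alternatives. *Ccnd3* had 12.45, 12.79, 12.96 and 12.49 in EC and 10.96, 11.08, 11.10 and 11.01 in IC, without overlap, and it kept its direction without replicate 4, where 0 members were higher and 5 lower. In the TME fractions *Cdk4* alone was called, at 14, 13.88, 14.02 and 13.83 in ET and 12.99, 13.84, 13.01 and 13.68 in IT (-0.55, adjusted p = 0.037, with 4.63 and 5.53% of all genes higher and lower), and IT replicate 2 lay within the range of the ET channels. With all libraries these counts were below the share of all genes, and without replicate 4 the 5 lower genes were 8.77% of the members, where 7.67% of all genes were lower and 5.41% higher.

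*Ccnd1*, *Ccnd2* and *Cdt1* were higher in KC than in both other control fractions, although slide and cell type cannot be told apart there. In KC minus EC 4 members were higher and 5 lower (10.5 and 14.4% of all genes), and in KC minus IC 5 were higher and 3 lower (8.44 and 9.07%). The comparisons share the KC samples. *Ccnd1* was higher by 2.24 against EC and 3.20 against IC (adjusted p = 1.65e-07 for the second), *Ccnd2* by 1.17 and 1.77, and *Cdt1* by 1.63 and 0.99, while *Ccnd3* was higher by 1.22 against IC and *Cenpa* by 1.63 against EC. Lower in both were *Cdk4* (-1.18 and -0.63), *Orc6* (-1.19 and -0.87) and *Mcm7* (-1.01 and -1.10), and *Mcm3* was lower against EC (-1.26). *Ccnd2*, with 11.83, 12.12, 12.19 and 11.78 in EC and 11.33, 11.25, 11.35 and 11.59 in IC, was below every Kupffer channel in both. Without replicate 4, KC minus EC gave 3 higher and 5 lower (9.54 and 12.4% of all genes) and KC minus IC 4 higher and 3 lower (7.8 and 7.9%). The share of members called was again near or below that of all genes.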

How the data were processed

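The 32 samples were measured as single channels of 16 two-colour Agilent arrays with mm9 annotation, and the labels gave each sample's group, dye and replicate number. The authors deposited Feature Extraction 10.7.3.1 output with an intensity for each spot and channel, already corrected for background and scaled between dyes, and a table of quantile-normalized intensity values per probe. The deposited table follows the values computed here (r of at least 0.9999 per channel) and was used as an alternative. The 57 members, the lists and the roles were chosen with earlier results of these data known.

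From the scanner output, control spots and outlier spots were removed, log2 of each channel's own processed signal was averaged per probe, and the 32 channels were quantile normalized. Levels are on this log2 scale and are compared only within a probe. Differences were tested with limma 3.58.1 (R 4.3.3) in a single fit of 8 groups, with Benjamini-Hochberg adjustment over 55681 probes, and called at an adjusted p under 0.05. Each p-value sets a difference against the spread between these samples within their groups. That spread is estimated over all 8 groups, so it also depends on groups outside the comparison. Where none of a group's arrays had a probe well above background, its fold is given as a lower bound, from signals normalized by loess and Aquantile. Values in every sample are given for 14 genes, except for *E2f1* in EC and ET. Per comparison, up to 3 genes with the largest rise and 3 with the largest fall among those called are named, some by their difference alone. The methods' t-test, other background corrections and scalings, a filter on dim probes, the probe with the highest variance, and fits without single replicates were run as alternatives, and the steps were tested on simulated data. Promoter sequences came from the RefSeq table.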

Additional observations from a re-analysis of the deposited data

Results flagged for a closer look

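Of 192 groups of 4 channels examined, for the named members and the list level, 27 held a channel far from the other 3, by a gap larger than Dixon's critical value allows. Chance alone gives about 5% of groups. TME endothelial replicate 2 was such a channel, and the highest, for *Ccna2* (7.62), *Cdk1* (7.93), *Cenpa* (7.75), *Mcm3* (12.42), *Orc6* (11.24) and *Mcm7* (11.53), and TME endothelial replicate 4 was the lowest for *Mki67* (8.35). The library labelled control Ito replicate 4 lay apart for *Cdk1* (5.96), *E2f1* (7.79), *Bub1b* (3.95) and the list level (-0.81), where it was the highest, and for *Cdkn1a* (12.51), *Cdt1* (10.86) and *Mcm3* (10.67), where it was the lowest. The library labelled TME Kupffer replicate 4 lay apart for *Ccnd1* (12.98) and *Cdkn1a* (13.57), both above the other 3, and for *E2f1* (6.95), below them.

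TME Ito replicate 2 was far above the other 3 for *Mcm5* (10.38) and *Ccnd3* (12.96). Control Kupffer replicate 3 was far above for *Ccnd3* (12.78) and *Cenpf* (2.85, not well above background) and far below for *Cdk1* (3.40) and *Tyms* (8.41). In the tumor groups, TP replicate 3 was the highest for *Top2a* (12.62) and *Cenpa* (12.89), and TP replicate 4 the lowest for *Ccnd1* (12.88) and *Ccnd2* (10.40).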

How the results depend on the processing

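Tumor against Kupffer counts stayed near the main ones in the alternatives run (49 to 51 members higher and 3 lower without any single replicate), apart from the stricter rule. Under that rule, an adjusted p under 0.001 and 4-fold, fewer members were higher and the lower count, 3, became 1. Other small changes of a count are not listed in this section. The single reversed value was *Cdkn1a*, 1.76 in place of -2.28 with its most variable probe. The count of 1 higher in TP became 0 with the compared groups fitted alone, under the methods' t-test and under the stricter rule, and ranged from 0 to 4 without single replicates. The count lower in TP became 1 without the 6 libraries that stand apart and without TME Ito replicate 2 and control Kupffer replicate 3, both chosen after seeing the data. The endothelial count of 1 became 0 with normexp and quantile scaling, in the deposited table and under the stricter rule, 2 with normexp, loess and Aquantile, with the 75th percentile and under the methods' t-test, 6 with the groups fitted alone, 3 without the 6 libraries, and 0 to 0 without single replicates.

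The Ito TME count ranged from 0 to 4 and the Kupffer TME count from 0 to 1 without single replicates, and without the 6 libraries they were 6 higher and 2 lower, and 3 higher and 1 lower. Ito against endothelial control calls (4) became 7 with dim probes removed, 16 with the groups fitted alone, 14 under the methods' t-test, 0 under the stricter rule, 10 without the 6 and 10 without the 2 libraries, and 1 to 5 without single replicates. In the TME fractions (1) they became 0 under both normexp scalings, the 75th percentile, the groups alone, the t-test and the stricter rule, 2 with dim probes removed, 3 with the most variable probe, 6 and 8 without the 6 and the 2 libraries, and 0 to 4 without single replicates. Kupffer against endothelial calls (9) became 16 with the groups alone, 14 under the t-test and 1 under the stricter rule, with 7 to 10 without single replicates. Kupffer against Ito calls (8) became 1 under the stricter rule, with 6 to 9 without single replicates. Calls for differing changes (0) became 1 with the groups alone, 1 under the t-test and 3 without the 6 libraries.

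With the array as a replicate block (consensus correlation 0.08) all 15 of these counts were unchanged, for example 50 higher and 3 lower in tumor against Kupffer cells. Same-numbered channels correlated at -0.65 to 0.4 after removal of group means, so the numbers share an array but were not treated as pairs. Cell cycle genes near background in liver cells, such as *Ccnb1*, *Bub1* and *Kif11*, have differences whose size depends on the background correction.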
